A study of Mus musculus with 36 samples.

Results

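A set of 9 fat cell markers was followed across the tissues of mice with 1 or 2 X chromosomes: Adipoq, Cfd, Lep and Retn, which encode secreted proteins, Plin1 and Cidec, which encode lipid droplet proteins, Fabp4, Car3 and Ucp1. They were chosen by name from a list, and all array probes that the annotation names for them were taken. This gave 9 probes for 8 of the 9 genes, of 46632 probes in all. Car3 had 2 probes and each of the others 1, and no probe named for Cfd was found. Fat lies against several organs and is dissected away with varying success, so its transcripts in RNA of whole kidney or muscle can come from attached tissue as well as from the organ.

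White fat cells store triglyceride in 1 large droplet coated with perilipins and secrete hormones such as adiponectin and leptin. Brown fat cells hold many small droplets and many mitochondria, and they burn fatty acids for heat through uncoupling protein 1 (UCP1), which is their defining protein. Fat depots surround the kidney and lie along muscles and beneath the skin, whereas the brain holds none.

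Expression had been measured in kidney, muscle, liver and brain of 12-week-old female mice on the MF1 background, with 36 Illumina Mouse WG-6 arrays. The 40,XX mice carried 2 X chromosomes. The 39,XO mice carried 1, of paternal (XpO) or maternal (XmO) origin. XX and XpO females came from matings of 40,In(X)1H/XPaf females with 40,XY males and XmO females from matings of 40,XX females with 40,XPafY* males, so the parental origin of the X chromosome and the cross cannot be told apart. Each genotype was represented in each tissue by 3 pools of RNA, pools 1 and 2 from 3 mice and pool 3 from 2 mice, and the pools are numbered alike in the 4 tissues. The number of XX mice given in the methods falls short of the sum of these pool sizes, so whether XX pools shared a mouse is not known. All X chromosomes go back to the same founder X, whereas the stock itself is random-bred, so the autosomes can differ between mice. Marker genes matched the tissue labels: the log2 intensity of Umod was 13.48 to 14.08 in kidney, that of Ckm 14.45 to 14.63 in muscle, that of Apoa1 14.61 to 14.84 in liver and that of Snap25 (probe ILMN_2434336) 14.92 to 15.33 in brain. Acta1, the skeletal muscle actin, stood out in 1 kidney array, at 9.28 in XmO pool 3 against 5.47 to 6.36 in the other 8, and the fast fibre troponin genes Tnni2 and Tnnt3 were also highest there (7.78 and 7.03). Snap25 (probe ILMN_2434336) was high in the kidney of XpO pool 3 (6.87 against 5.62 to 5.96 in the other 8) and, with 7.29 and 7.28, in the muscles of XX pools 1 and 2 (5.72 to 6.30 in the other 6). In the same muscles Ttr, the transthyretin gene of liver and choroid plexus, was at 8.63 and 7.85 (5.54 to 6.05 in the other 6), and Slc34a1, a phosphate transporter of kidney, was highest in XX pool 1 (7.53 against 5.62 to 6.57). Of the 4 probes of 3 liver genes detected in muscle, only 1 had a higher mean in XX than in XO. The median difference of these probes was -0.63, and Apoa1 lay at 8.34 to 8.82 in all muscles. The median intensity per array was 55.6 to 70.4, and 35 of the 36 arrays could be used. The intensity column of the muscle array of XpO pool 3 did not hold intensities, which leaves 2 XpO pools and 5 XO pools in muscle.

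Intensities are given as normalised log2 values, on which 1 unit is a 2-fold change. A level of 5.90 to 6.04, the 95th percentile of the 17747 probes detected in no tissue, served as the background level of an array. Of the 9 probes, 8 of 7 genes were detected in kidney (all but Retn), 9 of 8 genes in muscle, 2 in liver (both of Car3) and 4 in brain. RNA from fewer fat cells and less RNA per fat cell cannot be told apart in such samples.

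Muscle RNA held the highest levels of the fat cell markers and kidney RNA the next, while liver and brain were at or near background for all but Car3. Adiponectin (Adipoq), an insulin-sensitising hormone made almost only by fat cells, had a mean of 12.37 ± 0.58 (SD, n = 8) in muscle and 9.57 ± 1.96 (SD, n = 9) in kidney. Its means in liver and brain were 5.95 ± 0.13 and 5.94 ± 0.08 (SD, n = 9 each). Ucp1 followed, with means of 12.24 ± 1.54 (n = 8) in muscle, 10.33 ± 2.67 (n = 9) in kidney, 5.72 ± 0.11 in liver and 5.92 ± 0.18 in brain. The difference of kidney minus muscle was -2.80 for Adipoq (SE 0.47, limma, adjusted p = 1.62e-06) and -1.91 for Ucp1 (SE 0.69, adjusted p = 0.0147). Liver minus brain was 0.0028 for Adipoq (SE 0.45) and -0.20 for Ucp1 (SE 0.67), within the error for both.

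The order muscle, kidney, then liver and brain held for most probes. All 9 probes passed the test between kidney and muscle, all lower in kidney, where 67.7% of all 28885 probes passed in either direction. Against liver 7 of 9 probes differed in kidney (background 69.6%) and 8 of 9 in muscle (background 69.4%), and against brain 8 differed in kidney (background 74%) and 9 in muscle (background 77.5%). These shares are near or above those of all probes, which differ between tissues for most genes, so the size of the difference tells more than the count. It was 6.43 for Adipoq, 6.52 for Ucp1, 3.35 for Cidec and 2.95 for Lep between muscle and liver (SE 0.47, 0.69, 0.26 and 0.20). Only 2 probes, both of Car3, passed between liver and brain (background 82.6%).

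**Figure D1:**
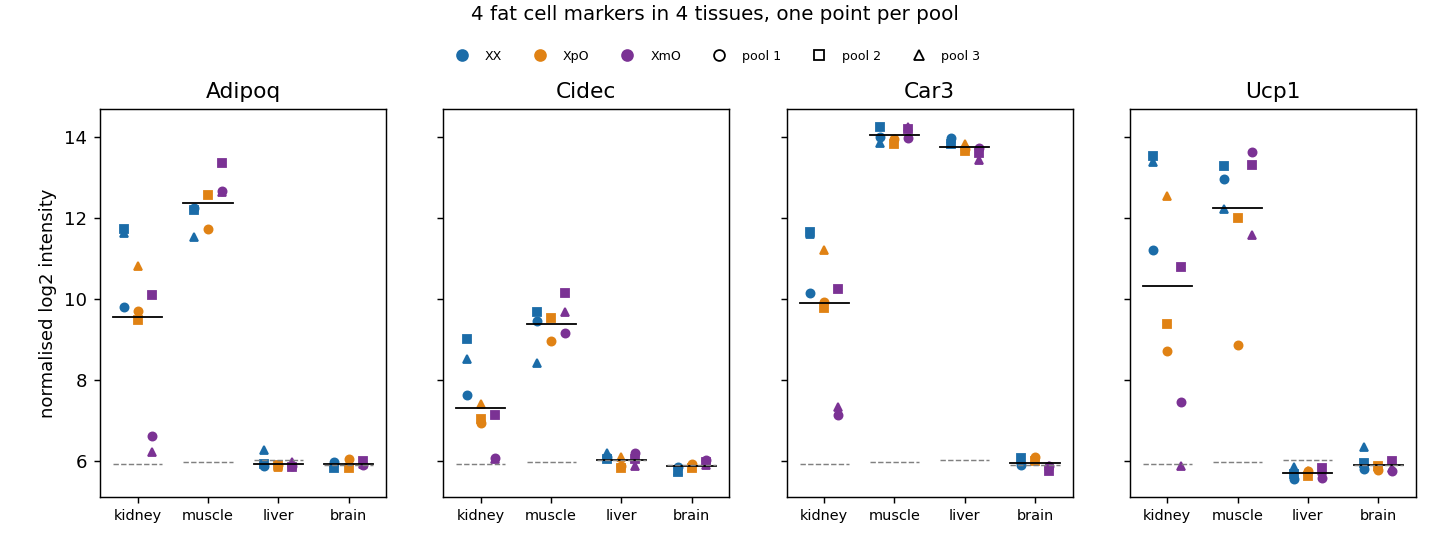
Normalised log2 intensity (vertical axis) of Adipoq, Cidec, Car3 (probe ILMN_2668879) and Ucp1 in the pools of 4 tissues, with colours for genotypes and symbols for pool numbers. Black lines are tissue means and dashed lines the background level. Kidney pools of Ucp1 range from 5.90 to 13.54, while the liver and brain pools of Adipoq and Ucp1 lie near background.

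Car3 departed from this order. It encodes carbonic anhydrase III, an enzyme abundant in fat cells, skeletal muscle and liver alike. Probe ILMN_2668879 had a mean of 14.05 in muscle and 13.75 in liver, a difference of 0.29 (SE 0.39, adjusted p = 0.518), against 9.90 in kidney. Probe ILMN_2630047 differed between muscle and liver by 0.77 (SE 0.35, adjusted p = 0.0497). Of the 8 markers with a probe, Car3 alone was bright in liver.

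For 7 of the 9 genes RefSeq (GRCm38.p6) gave a promoter, here taken as 250 bases before to 50 after the start of transcription. Those of the 5 genes detected in kidney are shown, since the results turn on the levels of these genes over the kidney pools, and Cidec is given with both starts listed for it. Capitals mark matches, on either strand, to 4 short motifs, which do not overlap each other here: the TATA box TATAAA, the CCAAT box, the core site of nuclear receptors AGGTCA, and the core of sites of C/EBP factors, TTGCNNAA. All sequences run 5′ to 3′ on the strand of the gene.
Ucp1, chr8:83290098-83290397, + strand: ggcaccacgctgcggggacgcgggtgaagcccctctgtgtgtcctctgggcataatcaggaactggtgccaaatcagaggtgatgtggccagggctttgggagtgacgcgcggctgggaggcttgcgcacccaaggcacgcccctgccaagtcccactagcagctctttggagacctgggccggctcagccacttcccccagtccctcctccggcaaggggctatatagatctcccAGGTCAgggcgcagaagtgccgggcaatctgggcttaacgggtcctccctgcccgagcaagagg
Adipoq, chr16:23146286-23146585, + strand: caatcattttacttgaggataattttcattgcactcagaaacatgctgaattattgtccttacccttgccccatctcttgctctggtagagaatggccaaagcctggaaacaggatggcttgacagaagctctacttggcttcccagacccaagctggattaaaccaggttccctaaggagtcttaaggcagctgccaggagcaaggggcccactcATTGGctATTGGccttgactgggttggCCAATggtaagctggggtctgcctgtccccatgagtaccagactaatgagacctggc
Cidec, chr6:113434715-113435014, - strand: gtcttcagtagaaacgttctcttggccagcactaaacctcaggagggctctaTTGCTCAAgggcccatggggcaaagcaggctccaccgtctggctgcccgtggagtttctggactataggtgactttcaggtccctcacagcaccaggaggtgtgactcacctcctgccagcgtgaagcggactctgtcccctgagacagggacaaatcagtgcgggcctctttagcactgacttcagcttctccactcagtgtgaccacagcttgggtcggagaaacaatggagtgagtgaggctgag
Cidec, chr6:113435711-113436010, - strand: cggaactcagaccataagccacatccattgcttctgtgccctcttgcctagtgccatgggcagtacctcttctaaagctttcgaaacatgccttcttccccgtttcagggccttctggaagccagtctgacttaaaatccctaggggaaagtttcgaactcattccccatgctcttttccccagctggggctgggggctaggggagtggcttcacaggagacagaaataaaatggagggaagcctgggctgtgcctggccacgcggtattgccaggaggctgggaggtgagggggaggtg
Lep, chr6:29059971-29060270, + strand: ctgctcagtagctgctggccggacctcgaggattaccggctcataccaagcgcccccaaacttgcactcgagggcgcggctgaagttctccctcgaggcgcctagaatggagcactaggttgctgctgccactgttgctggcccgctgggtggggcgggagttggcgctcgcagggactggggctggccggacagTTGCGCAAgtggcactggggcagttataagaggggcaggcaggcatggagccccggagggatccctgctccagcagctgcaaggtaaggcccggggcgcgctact
Plin1, chr7:79732727-79733026, - strand: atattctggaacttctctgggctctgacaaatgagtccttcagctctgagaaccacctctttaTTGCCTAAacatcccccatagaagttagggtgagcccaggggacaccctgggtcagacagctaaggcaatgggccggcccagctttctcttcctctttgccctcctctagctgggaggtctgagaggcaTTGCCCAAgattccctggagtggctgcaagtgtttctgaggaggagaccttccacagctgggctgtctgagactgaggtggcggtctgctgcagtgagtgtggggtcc
Ucp1 held 1 AGGTCA, 14 bases before the start, and no match to the other motifs. Adipoq held 3 CCAAT boxes, 34, 27 and 7 bases before the start, Lep 1 match to TTGCNNAA at 55 bases, and Plin1 2 such matches at 187 and 58 bases. The Cidec promoter that ends at 113435014 held 1 such match at 198 bases, and the other held no match to any of the motifs. No motif was found in all of these promoters, and TTGCNNAA was found in those of Cidec (1 of its 2), Lep and Plin1. Of 32851 promoters of this length, 13.6% held TATAAA, 37.4% CCAAT, 16.3% AGGTCA and 10.8% TTGCNNAA, so each match is of a kind found in many. These matches are a description of the letters only.

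In kidney the 9 pools differed widely at the fat cell markers, and 5 of the 8 detected probes, of Ucp1, Adipoq, Car3 and Cidec, were among the 32 with the widest ranges. Ucp1 measured 11.21, 13.54 and 13.39 in XX pools 1 to 3, 8.71, 9.39 and 12.55 in XpO pools 1 to 3, and 7.46, 10.80 and 5.90 in XmO pools 1 to 3. Its range of 7.65 was the widest of all 23417 probes detected in kidney, whose median range was 0.31. The highest pool exceeded the lowest, which lay at background, at least 195-fold. XmO pool 3 was below all other pools and XX pools 2 and 3 were above, but XpO pool 3 was higher than XX pool 1, and the genotypes overlapped.

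The same pools led for the other markers. Adipoq measured 9.80, 11.73 and 11.65 in the XX pools, 9.70, 9.50 and 10.82 in the XpO pools and 6.64, 10.11 and 6.23 in the XmO pools, a 45.4-fold span and the 4th widest range in kidney. Car3 spanned 16.1-fold and 23.0-fold with its 2 probes, the 14th and 8th widest ranges. For probe ILMN_2668879 the values were 10.16, 11.66 and 11.61 in XX, 9.93, 9.78 and 11.22 in XpO, and 7.13, 10.27 and 7.33 in XmO pools. For both genes XmO pools 1 and 3 stood far below the other 7, and XmO pool 2 lay among the XpO pools.

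Cidec, whose protein fuses small lipid droplets into large ones, was the only marker whose XX pools all lay above every XO pool in kidney. It measured 7.64, 9.02 and 8.52 in XX, 6.94, 7.04 and 7.42 in XpO and 6.09, 7.14 and 6.06 in XmO pools. The groups were closest at XX pool 1 and XpO pool 3, and each group spread over more than the gap between these pools. Leptin (Lep), the hormone that reports fat stores to the brain, measured 6.92, 7.16 and 6.38 in XX, 6.56, 5.96 and 7.33 in XpO and 5.60, 6.22 and 5.56 in XmO pools, so that XpO pool 3 was its highest pool and XmO pools 1 and 3 were below background.

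The remaining markers were dim in kidney. Plin1, which coats the droplet and gates lipolysis, measured 5.98, 6.50 and 6.37 in XX, 5.69, 5.85 and 6.27 in XpO and 5.74, 5.98 and 5.66 in XmO pools, with 4 of the 9 pools below background. Fabp4, a fatty acid carrier of fat cells, macrophages and capillary endothelium, ranged only from 5.83 to 6.12, and Retn, which encodes the hormone resistin, from 5.60 to 5.95 without being detected. Rare transcripts and weak probes cannot be told apart for such genes.

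Counted over the 8 probes detected in kidney, XX pools 2 and 3 and XpO pool 3 were each among the 3 highest pools for 7, and XmO pool 3 was among the 2 lowest for 8 and XmO pool 1 for 6. The 3 pools of 2 mice lay at opposite ends, XX and XpO pool 3 high and XmO pool 3 low. Within a genotype the pools also differed widely, with Ucp1 in XmO pool 2 at least 29.2-fold above XmO pool 3, in XpO pool 3 14.3-fold above XpO pool 1, and in XX pool 2 5.03-fold above XX pool 1.

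**Figure D2:**
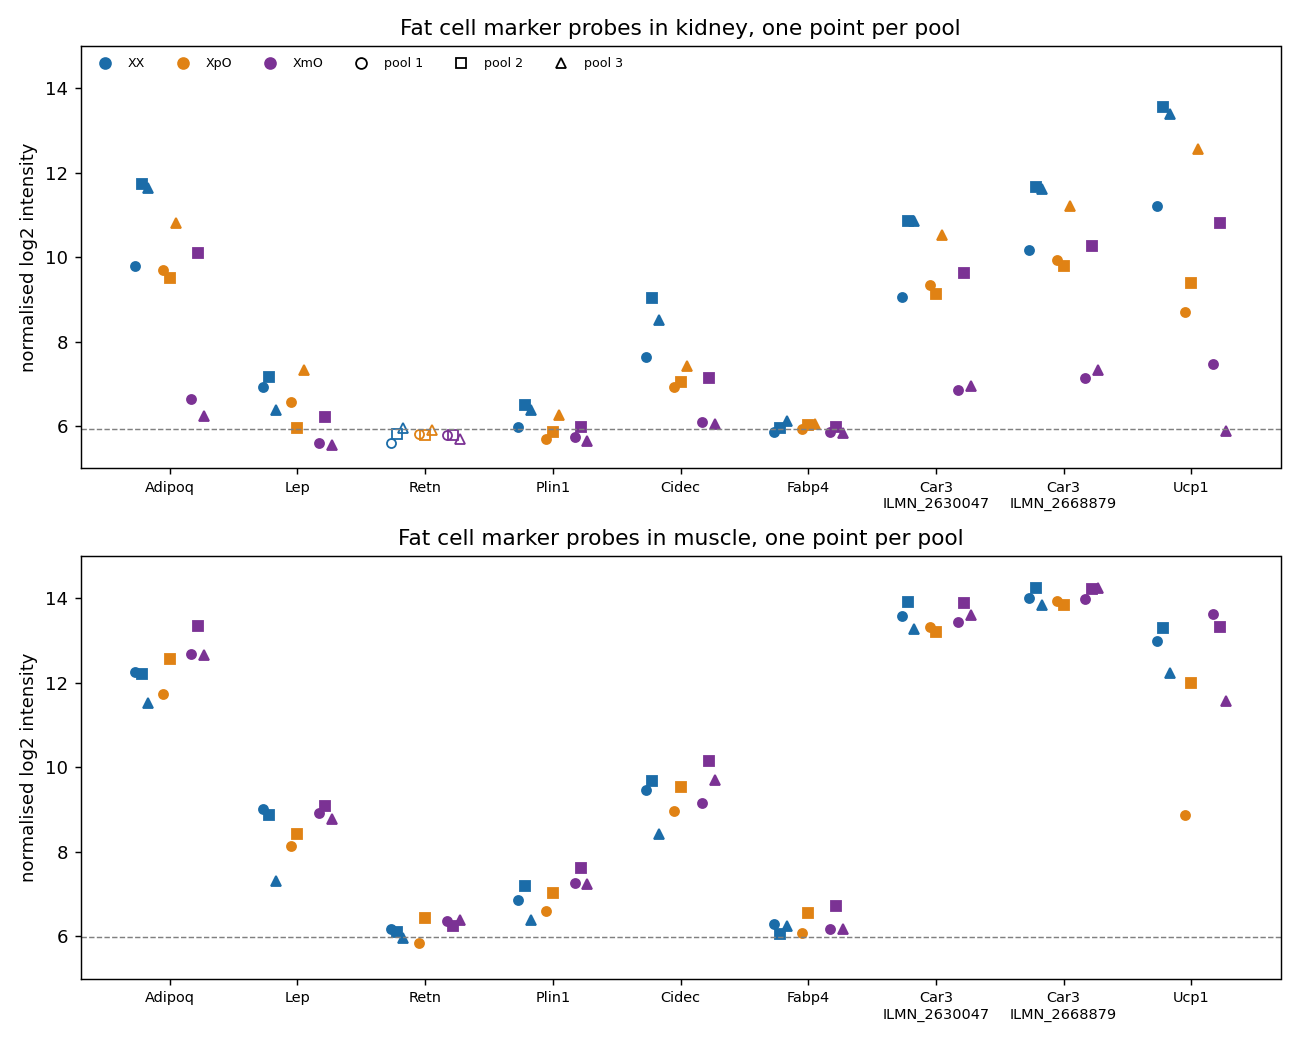
Normalised log2 intensity (vertical axis) of the 9 marker probes in kidney (upper panel) and muscle (lower panel), one point per pool, with open points where the probe was not detected and a dashed line at the background level. In kidney XmO pools 1 and 3 are the lowest of most probes, and in muscle Ucp1 has XpO pool 1 at 8.88 and the other 7 pools at 11.58 to 13.64.

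XX kidneys had higher means of all 8 detected markers than XO kidneys, but no marker passed the test. The difference of XX minus XO was 3.58 for Ucp1 (SE 1.12, 12.0-fold, limma, adjusted p = 0.241), 2.23 for Adipoq (SE 0.92, 4.68-fold, adjusted p = 0.339) and 1.61 for Cidec (SE 0.33, 3.06-fold, adjusted p = 0.146). It was 1.86 and 1.52 for the Car3 probes ILMN_2668879 and ILMN_2630047 (SE 0.79 and 0.74), 0.61 for Lep (SE 0.32), 0.42 for Plin1 (SE 0.14) and 0.02 for Fabp4 (SE 0.07). The median over the 8 probes was 1.57, against 0.00 over all probes detected. None of the 8 passed the threshold of 0.05 after adjustment, where 0.047% of all probes did. At an unadjusted p under 0.05 there were 5 of 8 markers and 12.8% of all probes. Cidec was the 1 marker with XX pools above all XO pools, and 2.4% of all probes were so placed. The markers share their pools, so their directions are not separate observations. With XX pool 1 left out, Cidec passed (1.99, SE 0.32, adjusted p = 0.0243). In that fit 184 of 23417 probes passed, against 11 in the reported one.

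The difference was smaller against XpO than against XmO pools and kept its direction for the 7 probes other than that of Fabp4. Against the XpO pools alone, of the same cross as XX, the difference was 2.50 for Ucp1 (SE 0.92, adjusted p = 0.528), 1.05 for Adipoq (SE 0.50, adjusted p = 0.609) and 1.26 for Cidec (SE 0.29, adjusted p = 0.335). Against the XmO pools alone it was 4.66 for Ucp1 (SE 1.07, adjusted p = 0.105), 3.40 for Adipoq (SE 0.90, adjusted p = 0.136) and 1.97 for Cidec (SE 0.36, adjusted p = 0.0724). These comparisons share the XX pools.

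XmO kidneys had lower means than XpO kidneys for all 8 probes, again without a call. The difference of XmO minus XpO was -2.16 for Ucp1 (SE 1.18, adjusted p = 0.519), -2.35 for Adipoq (SE 0.85, adjusted p = 0.326), -2.07 and -1.86 for Car3 (SE 0.71 and 0.69), -0.70 for Cidec (SE 0.33) and -0.82 for Lep (SE 0.30). The median was -1.34, against 0.00 over all probes. None of the 8 passed, where 0.0897% of all probes did, and 4 of 8 had an unadjusted p under 0.05, where 11.2% of all probes did. No marker had XmO pools all below the XpO pools (background 8.66%), since XmO pool 2 exceeded XpO pool 1 or 2 at each probe. Left out, this pool moved the difference of Adipoq to -3.57 (SE 0.53, adjusted p = 0.0673) and that of Ucp1 to -3.54 (SE 1.02, adjusted p = 0.340). The Acta1 signal noted above for the kidney of XmO pool 3 came with the lowest Ucp1 and Adipoq levels, and its part in the result was not tested. Without that pool the XmO minus XpO difference was -1.09 for Ucp1 (SE 1.17) and -1.63 for Adipoq (SE 0.87). Without XpO pool 3, the kidney with the Snap25 signal, it was -0.998 for Ucp1 (SE 1.12), -1.94 for Adipoq (SE 0.95) and -0.47 for Lep (SE 0.25).

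In muscle the markers were brighter, and some were more even than in kidney. The range over the pools was 1.83 in muscle against 5.50 in kidney for Adipoq and 1.72 against 2.96 for Cidec, and it was also narrower in muscle for Ucp1 and both Car3 probes. For Lep it was 1.76 against 1.77, and it was wider in muscle for Plin1 (1.22 against 0.84), Fabp4 (0.65 against 0.29) and Retn (0.60 against 0.35). Adipoq measured 12.26, 12.21 and 11.53 in XX pools 1 to 3, 11.73 and 12.57 in XpO pools 1 and 2, and 12.68, 13.36 and 12.66 in XmO pools 1 to 3. The 3 XmO pools were the highest, and XX pool 3 and XpO pool 1 the lowest. Cidec measured 9.47, 9.68 and 8.43 in XX, 8.97 and 9.53 in XpO and 9.17, 10.15 and 9.70 in XmO pools. Lep measured 9.02, 8.88 and 7.31 in XX, 8.15 and 8.43 in XpO and 8.93, 9.07 and 8.77 in XmO pools. XX pool 3 was thus the lowest pool for all 3 genes, and XmO pool 2 the highest.

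Plin1 measured 6.85, 7.19 and 6.39 in XX, 6.59 and 7.02 in XpO and 7.27, 7.62 and 7.23 in XmO muscle pools, each above background. Fabp4 lay between 6.06 and 6.72 and Retn between 5.84 and 6.43, both highest in pools numbered 2, of XmO and of XpO mice. Car3 was bright in every muscle pool, at 13.84 to 14.26 for probe ILMN_2668879, a 1.33-fold span against 23.0-fold in kidney.

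Ucp1 had the widest range of the markers in muscle, as in kidney. It measured 12.98, 13.30 and 12.24 in XX, 8.88 and 12.00 in XpO and 13.64, 13.32 and 11.58 in XmO muscle pools. XpO pool 1 was 27.0-fold below XmO pool 1 and lay apart from the other 7 pools, and the range of 4.75 was the 6th widest of 21810 probes. The order of the pools differed from that of Adipoq. XmO pool 3, with the 3rd highest Adipoq level, had the 2nd lowest Ucp1 level, and XX pool 3, with the lowest Adipoq level, had a Ucp1 level above that of XpO pool 2. In the authors' normalised values, which include the muscle array of XpO pool 3, that pool had the highest Ucp1 value of the 9, 13.90, against 8.78 and 11.89 in XpO pools 1 and 2, and an Adipoq value of 12.42.

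XX and XO muscle did not separate at the markers. The difference of XX minus XO was -0.60 for Adipoq (SE 0.29, adjusted p = 0.343), 0.96 for Ucp1 (SE 0.84, adjusted p = 0.607), -0.31 for Cidec (SE 0.29, adjusted p = 0.636) and -0.27 for Lep (SE 0.34). Means were higher in XX for 2 of the 9 probes, those of Ucp1 and of Car3 probe ILMN_2630047. The median was -0.17, against 0.00 over all probes. None of the 9 passed, where 0.00917% of all probes did, and none had an unadjusted p under 0.05, where 15.5% of all probes did. A p above the threshold does not show equal levels. The value of Ucp1 rested on XpO pool 1 and was 0.21 (SE 0.45) without it. Without XX pool 3 the differences were -0.37 for Adipoq, 0.07 for Cidec and 0.28 for Lep, and over all fits without 1 pool they ranged from -0.55 to 0.07 for Cidec and from -0.57 to 0.28 for Lep. The signals of Ttr and Snap25 in XX pools 1 and 2 lie within this comparison, and their part in it was not tested. Leaving out the first of these pools moved the difference of Adipoq to -0.73, and leaving out the second to -0.70.

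XmO muscle had higher means than XpO muscle at all 9 probes, the opposite direction to kidney. The difference of XmO minus XpO was 2.40 for Ucp1 (SE 0.79, adjusted p = 0.416), 0.75 for Adipoq (SE 0.29, adjusted p = 0.490), 0.64 for Lep (SE 0.39), 0.57 for Plin1 (SE 0.21, adjusted p = 0.474) and 0.42 for Cidec (SE 0.36). None of the 9 passed (0.0138% of all probes did), and 3 had an unadjusted p under 0.05 (9.13% of all probes). All XmO pools lay above both XpO pools for 5 probes, of Adipoq, Lep, Plin1 and the 2 of Car3, where 13.6% of all probes were so placed in a comparison of 3 pools with 2. The authors' values include XpO pool 3, and there Lep, Plin1 and Car3 probe ILMN_2630047 overlapped. XpO pool 3 lay above the lowest XmO pool, at 8.72 against 8.68 for Lep, 7.67 against 7.56 for Plin1 and 13.55 against 13.51 for Car3. For Ucp1 the value rested on XpO pool 1, and was 0.85 (SE 0.66, adjusted p = 0.866) without it. Without that pool it was 0.32 for Adipoq (SE 0.32), 0.35 for Plin1 (SE 0.26) and 0.14 for Cidec (SE 0.45). Without XpO pool 2 it was 3.96 for Ucp1 (SE 0.66), 1.17 for Adipoq (SE 0.32) and 0.70 for Cidec (SE 0.45), and for Cidec it was 0.67 without XmO pool 1 and 0.18 without XmO pool 2. In the authors' values with 3 XpO pools it was 1.32 for Ucp1 (SE 1.13, adjusted p = 0.858) and 0.70 for Adipoq (SE 0.31, adjusted p = 0.744).

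**Figure D3:**
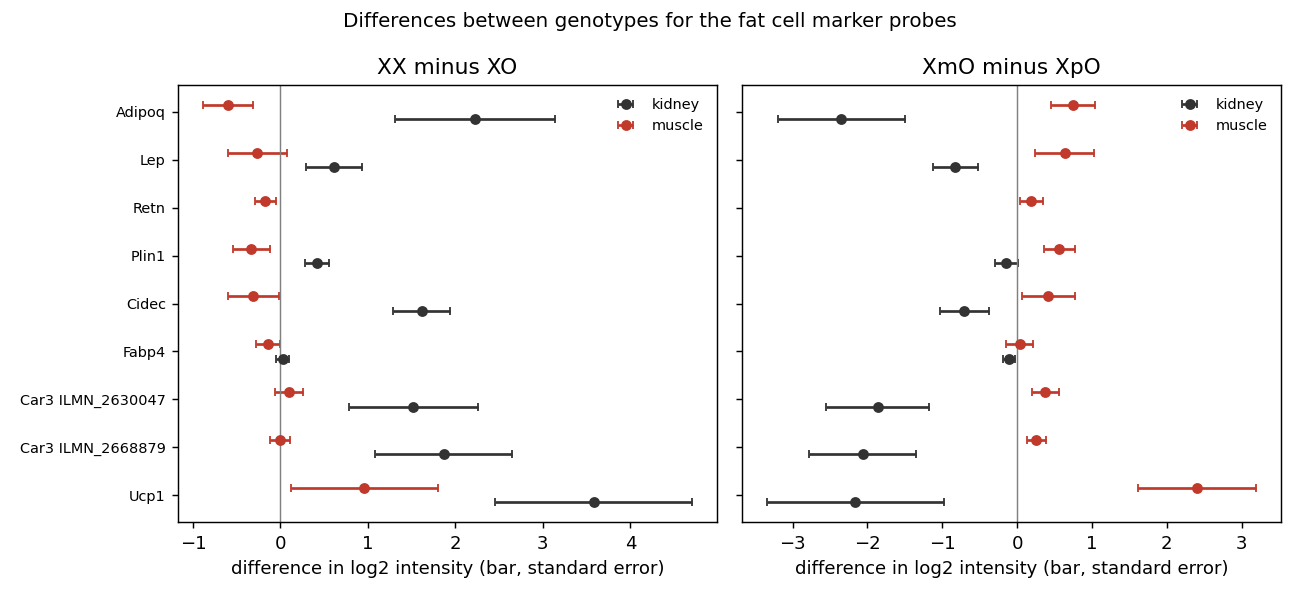
Differences in log2 intensity between genotypes (horizontal axis) for the marker probes in kidney (dark) and muscle (red), XX minus XO on the left and XmO minus XpO on the right, with bars of 1 standard error. All 8 kidney points lie above 0 on the left and below 0 on the right, and all 9 muscle points lie above 0 on the right, with no probe past the threshold of 0.05.

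The kidney difference was set against the muscle difference in a single fit to all 35 arrays, to ask whether XX minus XO differed between the tissues. It was larger in kidney by 1.88 for Cidec (SE 0.37, limma, adjusted p = 0.00978) and by 2.75 for Adipoq (SE 0.71, adjusted p = 0.0448), and these 2 of 8 probes passed, where 1.54% of 20058 probes did. The other 6 differences were also above 0, among them 2.38 for Ucp1 (SE 1.10, adjusted p = 0.289), 0.81 for Lep (SE 0.37) and 0.70 for Plin1 (SE 0.21, adjusted p = 0.0817), and 7 of 8 had an unadjusted p under 0.05, where 15.4% of all probes did. The fit shares its estimate of spread with liver and brain, where these probes lay at or near background except those of Car3 in liver. From the arrays of kidney and muscle alone, an alternative added after the data were seen, Cidec kept its call (adjusted p = 0.0489) and Adipoq lost it (adjusted p = 0.117). With the authors' values both lost it, at adjusted p = 0.0622 for Cidec and 0.116 for Adipoq. With median scaling, which by itself moved the median of all probes by 0.11, the differences were 2.25 for Cidec and 3.00 for Adipoq, and Plin1 passed too (0.82, adjusted p = 0.0254). Under that scaling 1015 of the 20058 probes passed, 927 with a difference above 0 and 88 below, against 308 in the reported fit.

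Leaving out single arrays changed these calls for Adipoq and not for Cidec. Cidec passed in all 17 such fits, with adjusted p of 0.00159 to 0.0487. Adipoq passed in 5, those without the kidney arrays of XX pool 1, XpO pool 3 or XmO pool 2 or the muscle arrays of XpO pool 1 or XmO pool 3, and not in the other 12, with adjusted p of 0.000117 to 0.152 over all 17.

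The XmO minus XpO difference was lower in kidney than in muscle for all 8 probes, with differences of -4.57 for Ucp1 (SE 1.32, adjusted p = 0.264), -3.10 for Adipoq (SE 0.86, adjusted p = 0.227) and -1.12 for Cidec (SE 0.44, adjusted p = 0.481). None of the 8 passed (0.0449% of all probes did), and 7 had an unadjusted p under 0.05 (7.94% of all probes). Without the kidney array of XmO pool 2, the probes of Adipoq, Ucp1 and Car3 passed, 4 in number, with a value of -4.32 for Adipoq (adjusted p = 8.08e-05) and of -5.94 for Ucp1 (adjusted p = 0.0257). In that fit 21 of 20058 probes passed, against 9 in the reported one.

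Most probes of other fat cell genes also had higher means in XX kidneys, without a call. Of 22 further fat cell genes, 20 were detected in kidney with 28 probes. None passed for XX minus XO, 25 of 28 had the higher mean in XX, and 4 had XX pools above all XO pools (2.4% of all probes). The median was 0.30, against 0.00 over all probes. The pools of the markers were not shared by all of them. Lpl, the lipoprotein lipase, measured 13.52, 13.46 and 13.93 in XX, 13.35, 13.86 and 13.71 in XpO and 13.76, 13.63 and 13.47 in XmO kidneys with probe ILMN_2692723. Aqp7, a glycerol channel, lay at 6.24 to 6.35 with probe ILMN_2607964, and Lpin1, a phosphatidate phosphatase, was highest in XmO pool 3 (8.93). Cidea, a droplet protein abundant in brown fat, measured 9.77, 11.89 and 11.48 in XX, 7.63, 7.96 and 10.24 in XpO and 6.34, 9.31 and 5.99 in XmO kidneys, the order of pools of Ucp1. Its XX minus XO difference was 3.13 (SE 0.81, adjusted p = 0.194). Pparg, the nuclear receptor that drives fat cell differentiation, had XX pools above all XO pools with both kidney probes, with differences of 0.87 (SE 0.18, probe ILMN_1221060, adjusted p = 0.148) and 0.54 (SE 0.11, probe ILMN_1221594, adjusted p = 0.143).

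The list of 9 brown fat genes gave 6 genes in kidney, none past the threshold and 4 with the higher mean in XX. Cox8b, a cytochrome oxidase subunit of heart, muscle and brown fat, measured 9.58, 10.86 and 11.69 in XX, 8.51, 8.86 and 10.46 in XpO and 7.93, 9.66 and 7.62 in XmO kidneys. Otop1, a proton channel expressed in brown fat, measured 6.30, 7.21 and 6.86 in XX, 5.66, 5.51 and 6.32 in XpO and 5.48, 5.84 and 5.46 in XmO kidneys. Cox7a1, another oxidase subunit of muscle and brown fat, was arranged otherwise, at 9.58, 9.66 and 10.34 in XX, 9.90, 10.02 and 10.59 in XpO and 10.21, 10.31 and 10.15 in XmO kidneys, with a difference of -0.34 (SE 0.17, adjusted p = 0.416). Ppargc1a, Prdm16 and Slc27a1 had differences of 0.04, 0.09 and -0.03 (SE 0.09, 0.08 and 0.09).

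Among 10 lipogenic genes, 8 were detected in kidney with 10 probes, none passed and all 10 had the higher mean in XX. Fasn, the fatty acid synthase, had XX pools above all XO pools, at 11.51, 12.25 and 11.76 against 9.35 to 11.41, a difference of 1.43 (SE 0.33, adjusted p = 0.161). Thrsp, a regulator of lipogenesis, differed by 2.20 (SE 0.61, adjusted p = 0.212) and Acaca, the acetyl-CoA carboxylase, by 1.23 with probe ILMN_1258600 (SE 0.31, adjusted p = 0.185). This direction was not particular to kidney. In liver, where Car3 was the only marker detected, 9 of 10 lipogenic probes also had the higher mean in XX, with a median of 0.16. There 2 of the 10 passed, both higher in XX, where 5.7% of all liver probes passed in either direction. Macrophage genes were detected with 5 probes, all higher in XX by a median of 0.13. Between XmO and XpO kidneys 4 of these 5 had XmO pools below all XpO pools (background 8.66%), with a median of -0.31, and none passed. Their part in the fat cell markers' differences was not tested.

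In muscle 31 probes of 21 further fat cell genes were detected. For XX minus XO 5 had the higher mean in XX, with a median of -0.19. For XmO minus XpO 26 of 31 had the higher mean in XmO, with a median of 0.40, and 9 had XmO pools above both XpO pools (background 13.6%). None passed in either comparison. The lipogenic genes did not share the first of these directions. They were detected in muscle with 10 probes, of which 8 had the higher mean in XX, and the median was 0.20. For XmO minus XpO 9 of the 10 had the higher mean in XmO, with a median of 0.39. No lipogenic probe passed in muscle. Cidea shared the low value of Ucp1 in XpO pool 1, at 8.13 against 9.97 to 12.12 in the other 7 pools, and so did Otop1, at 6.14 against 6.64 to 7.78. Cox8b, which muscle fibres express themselves, stayed at 13.78 to 14.46.

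Slow muscle fibres express Car3, and their own genes also varied between the muscle pools. Myl3, a slow myosin light chain, measured 13.40, 13.92 and 12.19 in XX, 13.26 and 12.75 in XpO and 12.79, 11.84 and 11.45 in XmO muscles. All 8 slow fibre probes had the higher mean in XX, by a median of 0.52, and none passed. Car3 probe ILMN_2668879 did not follow this order, being as high in XmO pool 3, the lowest in Myl3, as in XX pool 2, the highest (14.24 and 14.26). Probe ILMN_2630047 was lower in XmO pool 3 (13.60) than in XX pool 2 (13.91), its highest pool. Acta1 was lower in all XX than in all XO muscles, with a difference of -0.32 (SE 0.07, adjusted p = 0.110), and 4.94% of all probes were so placed. It was not typical of its list of 5 muscle tissue genes. Of the 8 probes of that list, 7 had the higher mean in XX. Their median was 0.08, and none passed. The part of fibre content in the muscle values was not tested.

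To describe which genes shared the pattern, the 8 or 9 marker probes detected in a tissue were averaged as z-scores into a marker index, and other genes were ranked by Pearson's r with it. Over the 9 kidney pools the 8 genes most like the index were Hp (0.995), Adig (0.992), Plin4 (0.984), Mrap (0.978), Abcd2 (0.977), Orm1 (0.974), Cidea (0.969) and Thrsp (0.968). Adig and Plin4 are genes of fat cells and their droplets, Mrap is the partner of melanocortin receptors in fat and adrenal cells, and Hp and Orm1 encode plasma proteins that liver and fat both make. Their spans ranged from 2.47-fold for Abcd2 to 59.7-fold for Cidea. Hp measured 8.48, 9.69 and 9.61 in XX, 8.03, 7.99 and 9.58 in XpO and 6.45, 8.23 and 6.31 in XmO kidneys.

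Over the 8 muscle pools the 8 genes most like the index were Nrg4 (0.983), Rbpms (0.982), Cdkn2c (0.981), Ugt1a6a (0.979), H2-D1 (0.978), Dgat1 (0.975), Slc1a5 (0.975) and Sucnr1 (0.970), with spans of 1.61-fold for H2-D1 to 2.99-fold for Nrg4. Nrg4 encodes a growth factor secreted by fat cells and Dgat1 an enzyme of triglyceride synthesis. No gene was among the 8 of both tissues. These r values describe likeness over few pools, picked as the highest of all probes detected, and the genes share each pool's RNA and array. Ucp1 itself had r = 0.978 with the index in kidney and 0.646 in muscle, and Adipoq 0.984 and 0.933. Both are part of the index, which raises their r by construction, so these values do not compare with those of other genes.

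**Figure D4:**
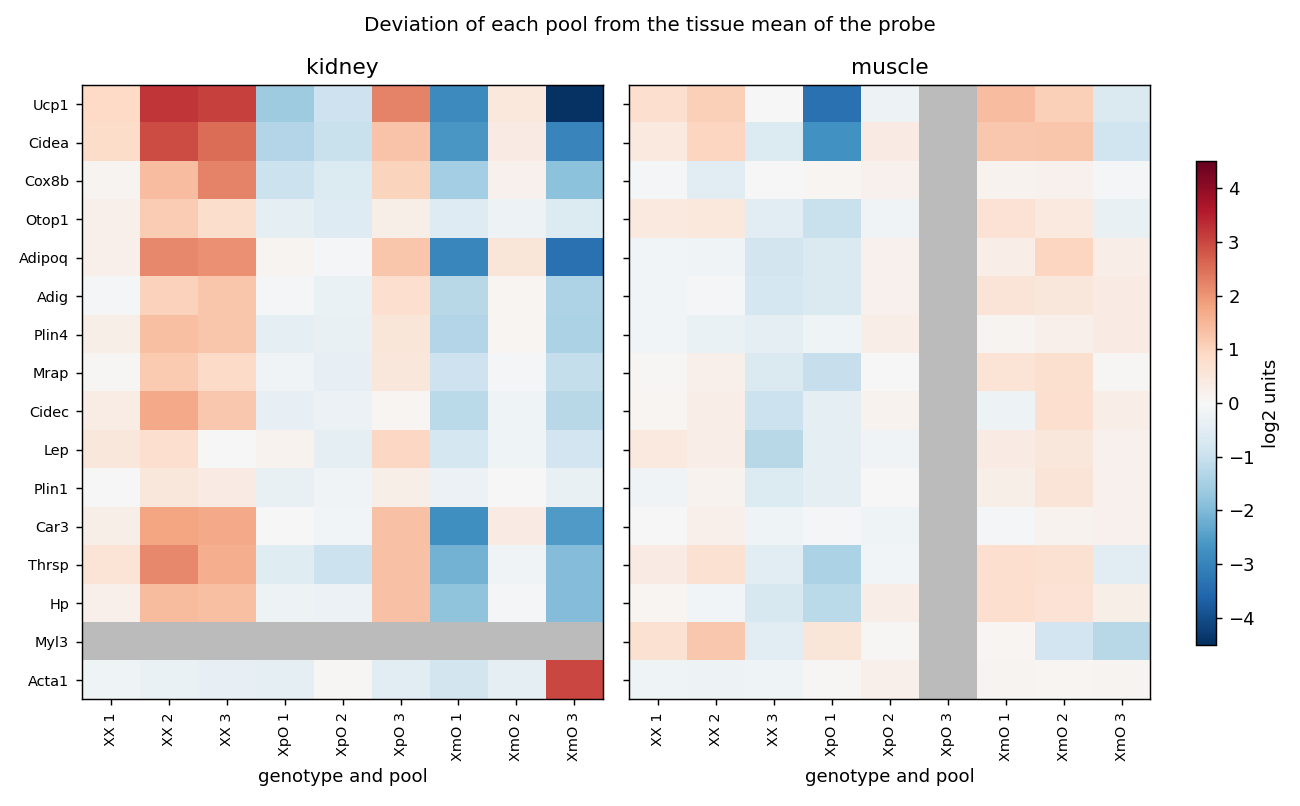
Deviation of each pool from the tissue mean of a probe, in log2 units by colour, for markers (Ucp1, Adipoq, Cidec, Lep, Plin1 and Car3 probe ILMN_2668879) and other genes named in the text, with grey where a probe was not detected or an array not used. In kidney XX pools 2 and 3 are high and XmO pools 1 and 3 low for the fat cell genes, and Acta1 is high in XmO pool 3, while in muscle Ucp1, Cidea and Otop1 are lowest in XpO pool 1.

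In liver the only markers detected were the 2 Car3 probes. Probe ILMN_2668879 measured 13.98, 13.84 and 13.96 in XX, 13.71, 13.67 and 13.83 in XpO and 13.74, 13.60 and 13.45 in XmO livers. All XX pools were above all XO pools, where 6.96% of all probes were, but XX pool 2 exceeded XpO pool 3 by less than the spread within either genotype. The difference was 0.26 (SE 0.08, 1.20-fold, adjusted p = 0.0827), where 5.7% of all liver probes passed. The second probe, ILMN_2630047, ranged from 12.56 to 13.04 with overlapping groups and a difference of 0.05 (SE 0.11). With the authors' values the first probe passed (0.41, adjusted p = 0.0276), where 1328 of 19878 probes did. XmO minus XpO was -0.14 (SE 0.09) and -0.10 (SE 0.12) for the 2 probes, neither with an unadjusted p under 0.05, where 0.0503% of all probes passed after adjustment and 9.7% before it. In XX minus XO the first probe alone had an unadjusted p under 0.05, as 26.3% of all liver probes did. Set against kidney, the XX minus XO difference of Car3 was smaller in liver by 1.61 and 1.46 (SE 0.57 and 0.56, adjusted p = 0.186 and 0.224), where 0.471% of probes passed and 13.7% had an unadjusted p under 0.05, as both of these did. Set against muscle it differed by 0.24 and -0.08 (SE 0.58 each, adjusted p = 0.835 and 0.949), where 13.4% of probes passed and 28.1% had an unadjusted p under 0.05. The other 7 probes were not detected in liver, and Lep, Plin1, Retn and Ucp1 were below background in all 9 livers. Adipoq was above background in 1 liver, XX pool 3 (6.27), Fabp4 in 1, XX pool 2 (6.07), and Cidec in 6 of 9, at up to 6.21. Besides the lipogenic probes given above, probes of other lists passed for XX minus XO in liver. They were 1 higher and 2 lower of 12 for fat stroma and fibroblast genes, 1 lower of 5 for liver genes and 1 higher of 14 for reference genes. None of the 19 probes of further fat cell genes passed there.

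In brain 4 probes were counted as detected, of Adipoq, Cidec, Ucp1 and Car3 (ILMN_2668879), all near background. Adipoq ranged from 5.83 to 6.06, Cidec from 5.74 to 6.04 and Ucp1 from 5.76 to 6.36, with XX pool 3 the highest for Ucp1. None of the 4 passed for XX minus XO (0.00402% of all probes did) or for XmO minus XpO (0.0161%). At an unadjusted p under 0.05 there was 1 of 4 in each, Cidec at -0.15 (SE 0.06) for XX minus XO and Car3 at -0.22 (SE 0.07) for XmO minus XpO, where 2.68% and 11.2% of all probes reached that level. Car3 had its XmO pools below all XpO pools, as 9.48% of all probes did. At signals this close to background a change of the transcript could not be measured.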

How the data were processed

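RNA of pooled mice was amplified and hybridised to BeadChips, and bead values were summarised in BeadStudio. A pair of deposited tables were used: intensities on a linear scale before normalisation, and log2 values of 28885 probes that the authors normalised by quantiles across all arrays with lumi, with blanks where a probe was not detected in a tissue. Genome build and annotation version of the files are not given in the sources used here. Here the deposited intensities, floored at 1, were log2-transformed and quantile-normalised across the 35 arrays with no correction for background. The muscle column of XpO pool 3 held whole numbers of 10 to 108 and was left out, so 1 per-sample column was not used. It entered only fits to the authors' values. Tests in a tissue were run on the probes with a value there in the authors' table. Probes were named through the array annotation, updated by gene identifier (20986 matched, 21014 with 1 symbol, 6 with several, 7865 with none). Depth has no counterpart on arrays, and the number of pools limits the precision.

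XX pools were compared with all XO pools of a tissue, and XmO with XpO pools in a fit of 3 genotypes, with limma 3.58.1 in R 4.3.3 (two-sided moderated test, Benjamini-Hochberg over all probes detected in the tissue, threshold 0.05). Differences between tissues were tested in 1 fit to 35 arrays. Levels between tissues were tested over 28885 probes. The fits were tested on simulated data. Descriptive values used Python 3.11.15 with numpy 2.4.6 and pandas 2.3.3, and figures matplotlib 3.10.9. For XpO and XmO the number of mice given equals the sum of the pool sizes, whereas for XX it is smaller, so p-values measure the spread between pools, which may share a mouse in XX.

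The markers, 15 further gene lists and the comparisons were chosen with earlier results of these data known. To be named were all marker probes, up to 4 genes of each list by smallest p where any passed, genes of other cell types where they bear on a marker, and in kidney and muscle the 8 genes most like the marker index. List genes passed only in liver, for XX minus XO, and are given there as counts and not by name. As no list gene passed in kidney or muscle, the list genes described there, the promoters printed and the milk protein genes were chosen after their values were seen. Alternatives were the authors' values, quantiles within a tissue, median scaling, normexp with an offset of 50, no or a stricter filter on dim probes, the pool number as a block, XpO or XmO pools alone, the pool as a random block across tissues, leaving out each pool, and, added after the data were seen, arrays of the 2 tissues only.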

Additional observations from a re-analysis of the deposited data

Results flagged for a closer look

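The XX minus XO difference was larger in kidney than in muscle by 2.75 log2 units for Adipoq (SE 0.71, limma, adjusted p = 0.0448), by a test of the difference between the tissues. The same test gave 1.88 for Cidec (SE 0.37, adjusted p = 0.00978). The fit shares its estimate of spread with liver and brain, where both probes lay at or near background. As given above, Adipoq lost its call with the arrays of kidney and muscle alone, and both genes lost it with the authors' values. Adipoq also lost it in 12 of 17 fits without 1 array. For Adipoq the 3 XX kidneys had a mean of 11.06 and the 6 XO kidneys one of 8.83, and for Cidec the means were 8.39 and 6.78, while in muscle the means of XX and XO were 12.00 and 12.60 for Adipoq and 9.19 and 9.50 for Cidec. Dixon's test found no single XO pool apart from the rest of its group in any of 23 groups of XpO and XmO pools combined, although chance alone flags about 1 in 20.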

How the results depend on the processing

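None of the 8 comparisons within a tissue gave a call in the reported fits. Calls appeared in 2 alternatives: 1 marker probe (Cidec) for XX against XO in kidney without XX pool 1, and 1 (Car3 ILMN_2668879) in liver with the authors' values. Over all probes these fits had 184 calls (11 reported) and 1328 calls (1133 reported). Over the fits without 1 pool, kidney had 0 to 1 calls. For XX minus XO in kidney less muscle, the reported 2 calls became 0 with the authors' values, 1 without a filter on dim probes, 1 with arrays of the 2 tissues only (added after the data were seen) and 1 to 4 without 1 array. For kidney less liver there were 0 to 2 (2 without kidney XmO pool 2), and for XmO minus XpO in kidney less muscle 0 to 4 (4 without that pool). Without that pool 71 of 18697 and 21 of 20058 probes passed in these comparisons. The causes were not tested, except that fewer arrays or more probes change the adjustment by construction. In all, 231 recomputed counts stayed within 1.5 times the reported ones and 20 did not, and of the single-probe values 1187 kept direction and side of the threshold, 31 turned, 15 gained a call and 16 lost one. Median scaling skewed the calls over all probes, in a direction that differed between comparisons. They turned towards lower for XX minus XO in muscle, with 37 higher and 634 lower (2 and 0 reported), in liver, with 139 and 1288 (549 and 584), and for XmO minus XpO in liver, with 8 and 357 (2 and 8). They turned towards higher for XX minus XO in kidney less muscle, with 927 higher and 88 lower (308 calls reported). The same held for kidney less liver, with 404 and 15 (88 calls reported).

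The directions that turned were of reported differences between -0.33 and 0.19, except that of Ucp1 in muscle (0.96). XX minus XO in muscle became 0.020 for Car3 ILMN_2668879 with the authors' values, 0.15 with XpO pools only and 0.021 with 3 genotypes as groups, 0.12 for Lep and 0.0052 for Plin1 with XpO pools only, and -0.054 for Car3 ILMN_2630047 and -0.0022 for Ucp1 with XmO pools only. With XpO pools only Fabp4 in kidney became -0.031 and Car3 ILMN_2668879 in brain -0.061, and with median scaling Car3 ILMN_2630047 in liver became -0.16. Leaving out 1 array, XX minus XO ranged from -0.047 to 0.087 for Fabp4 in kidney, and in muscle from -0.11 to 0.090 for Car3 ILMN_2668879, -0.063 to 0.26 for Car3 ILMN_2630047, -0.55 to 0.073 for Cidec and -0.57 to 0.28 for Lep. In brain it ranged from -0.053 to 0.015 for Adipoq. XmO minus XpO ranged from -0.27 to 0.026 for Plin1 in kidney, -0.19 to 0.26 for Fabp4 and -0.11 to 0.49 for Retn in muscle, -0.21 to 0.026 for Car3 ILMN_2630047 in liver, and -0.080 to 0.035 for Adipoq and -0.054 to 0.073 for Ucp1 in brain. Liver less muscle ranged from -0.24 to 0.079 for Car3 ILMN_2630047, and kidney less muscle of XmO minus XpO from -0.37 to 0.079 for Fabp4.

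Pool numbers did not pair the genotypes within a tissue: deviations from the genotype means of same-numbered pools correlated at -0.58 to 0.37 (median 0.04, 34 pairs). This check did not cover arrays of 1 pool in different tissues, which the reported fits between tissues treated as independent. With the pool as a random block across tissues, 351 of 20058 probes passed for XX minus XO in kidney less muscle (308 reported). With the pool number as a replicate block the 8 comparisons within a tissue gave 0 calls and the kidney less muscle comparison 2, as without it. In brain, pools of different number correlated at -0.63 to 0.71, beyond the other tissues, and pairs of brain arrays thus share variation that the genotypes do not describe. Signals under about 6 limit what can be said of Fabp4, Retn and Plin1.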

Other observations

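Milk protein genes varied more between the muscle pools than nearly all others, and they did not follow the fat cell markers. Csn2, the beta-casein gene, measured 6.14, 5.55 and 5.57 in XX, 8.33 and 8.75 in XpO and 6.10, 5.63 and 11.68 in XmO muscle pools. Csn1s1 measured 6.72, 5.63 and 5.63 in XX, 8.71 and 8.31 in XpO and 6.87, 6.35 and 10.83 in XmO pools, and Krt8, a keratin of simple epithelia, was also highest in XmO pool 3, at 9.74 against 5.76 to 7.67 elsewhere. Csn2 was not detected in kidney.

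A probe without a gene name in the annotation, ILMN_1230957, had the 2nd widest range in kidney, after Ucp1. It measured 12.25, 13.95 and 14.01 in XX, 12.31, 12.10 and 13.30 in XpO and 8.74, 12.91 and 7.48 in XmO kidneys, and 13.80 to 14.43 in muscle.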
